A study of Homo sapiens with 45 samples.

Results

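The 10 genes described here encode proteins that carry the cytidine analogue azacytidine (azaC) across the cell membrane, activate it, or meet it as part of RNA or DNA. They are the transporters SLC29A1 and SLC29A2, the kinases UCK1 and UCK2, the ribonucleotide reductase subunits RRM1 and RRM2, the DNA methyltransferases DNMT1 and DNMT3B, and the RNA methyltransferases NSUN2 and TRDMT1. They were taken by gene symbol from a count table of 60676 genes, and all 10 were found, each in 1 entry. The list was drawn up with earlier results of these data known. Of the 10, 9 had enough counts to be tested, as had 11078 genes of the table, and SLC29A2 had not. The cells were HAP1, a human near-haploid line that descends from the leukaemia line KBM-7, sequenced as 45 polyA mRNA libraries in 15 groups of 3.

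The 6 lines were AAVS1, taken as the reference and named for a site commonly edited as a neutral control, the knockouts ZNF598 KO, GCN2 KO and RNF25 KO, the double knockout RNF25 GCN2 DKO, and eS31 K113R, named for a lysine-to-arginine change. RNF25 and ZNF598 attach ubiquitin to stalled ribosomes. GCN2, the product of EIF2AK4, is a kinase that starts the integrated stress response, and eS31 is a protein of the small ribosomal subunit made from RPS27A. Every line was left untreated (18 libraries) or given 5 uM azaC for 4 h (18 libraries). AAVS1, RNF25 KO and GCN2 KO also received 25 nM halofuginone (HF), a prolyl-tRNA synthetase inhibitor, for 4 h (9 libraries). Whether a line was 1 clone is not stated. The labels speak of biological replicates without saying how the cultures were separated, so p-values measure the spread between these libraries. For replicates 2 and 3 of untreated eS31 K113R the title reads eS32_K223R, and they were placed by the column name given in their description.

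As background, azaC enters cells mainly through the equilibrative nucleoside transporters, of which SLC29A1 makes ENT1 and SLC29A2 makes ENT2. Uridine-cytidine kinases, made from UCK1 and UCK2, add its first phosphate, and most of the drug ends up in RNA. Ribonucleotide reductase, with its large subunit RRM1 and its small subunit RRM2, converts a part of the diphosphate to the deoxy form that enters DNA. DNA methyltransferases become covalently trapped on the analogue in DNA: DNMT1 maintains methylation after replication, and DNMT3B adds it to unmethylated sites. NSUN2 and TRDMT1 (also called DNMT2) methylate cytosines of tRNA and other RNAs and can be trapped in the same way on RNA. These enzymes are lost as protein when trapped, which mRNA counts do not measure.

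Libraries held 1135498 to 2478875 counts, with a median of 1541554, and the median tested gene had 27 to 66 counts in a library. EIF2AK4, the gene of GCN2, stood at 43.96 ± 1.64 CPM (the count divided by the scaled library total; SD, n = 3) in untreated AAVS1, 21.95 ± 2.41 in GCN2 KO and 39.6 ± 3.73 in RNF25 GCN2 DKO, so its mRNA does not check the label of the DKO. ZNF598 had 62.5 ± 10.7 CPM in untreated AAVS1 and 37.2 ± 5.97 in ZNF598 KO, RNF25 had 0 to 7 counts in a library, too few for a check, and a point change in RPS27A does not show in counts. With azaC over 6 lines the stress-response gene SESN2 rose by 1.65 ± 0.07 (log2 ± SE, edgeR adjusted p = 9.4e-22), while its difference was 0.07 in GCN2 KO and 0.16 in the DKO. DDIT3, another such gene, rose by 1.79 ± 0.13 over the 6 lines (adjusted p = 4.1e-14). A pair of libraries stood apart in how counts varied with the GC content of genes. Untreated AAVS1 replicate 2 had a slope of −0.46 log2 per 10 points of GC (next lowest −0.19), and azaC-treated RNF25 KO replicate 2 had 0.35 (next highest 0.12). Differences that leaving out both moved are given below without them as well. Of 14 markers of blood cells, 7 had a count in some library, and GATA2, TAL1 and KIT were the 3 that passed the count filter. PTPRC had at most 1 count in any library, and GATA1 and MPO had 0. In RNA from whole cultures, fewer cells that express a gene and less RNA per cell cannot be told apart.

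In untreated cells the activating and target enzymes covered a wide range of levels, with RRM1, RRM2 and DNMT1 at the top and SLC29A2 at the bottom. On the scale of CPM per kilobase of exon, which allows genes to be compared, RRM1 had a level of 114.5 ± 13.97 (SD over 18 untreated libraries), above 96.15% of the tested genes. RRM2 followed at 53.9 ± 10.1, DNMT1 at 43.0 ± 5.67, NSUN2 at 28.6 ± 4.18 and SLC29A1 at 27.4 ± 5.62 CPM per kb. The other members lay far below these, with UCK1 at 6.95 ± 1.78, UCK2 at 6.52 ± 1.24, DNMT3B at 3.89 ± 1.03, TRDMT1 at 1.14 ± 0.303 and SLC29A2 at 0.371 ± 0.397 CPM per kb. TRDMT1 stood above 13.47% of the tested genes.

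The order of neighbours was clear for some members and not for others. RRM1 was above RRM2 in 18 of 18 untreated libraries, and their ranges, 93.9 to 136.2 and 35.1 to 71.8 CPM per kb, did not overlap. RRM2 was above DNMT1, DNMT1 above NSUN2, and SLC29A1 above UCK1 in all 18 as well on this length. NSUN2 was above SLC29A1 in only 12 libraries and UCK1 above UCK2 in 9, so these pairs did not differ beyond their spread. The length used for a gene sets this order in part: with the longest transcript in place of all exons, SLC29A1 had 51.97 and NSUN2 44.2 CPM per kb, and UCK2 had 9.53 and UCK1 8.35, which turned both pairs. RRM2 and DNMT1 then stood level, at 78.2 and 77.9 CPM per kb, so their order rests on the length used too. Within families, on the length of all exons, the level of RRM2 was 0.451 times that of RRM1 in the median untreated library, NSUN2 was 24.5 times TRDMT1, DNMT1 was 10.7 times DNMT3B, and UCK2 was 0.985 times UCK1. Such ratios also move with the length: on the longest transcript DNMT1 had 77.9 and DNMT3B 4.15 CPM per kb.

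**Figure D1:**
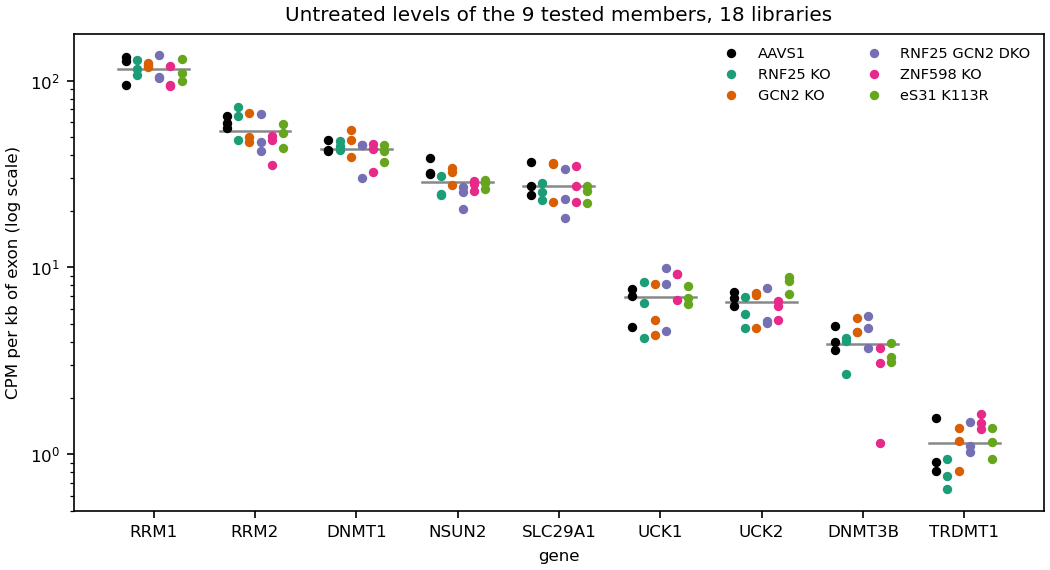
Level of the 9 tested members in untreated cells, in CPM per kilobase of exon on a log axis. Each dot is 1 of 18 libraries, coloured by line, and the grey line is the mean, from 114.5 for RRM1 to 1.14 for TRDMT1.

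With azaC for 4 h, none of the 9 tested members passed the test over the 6 lines together (adjusted p under 0.05 in edgeR's quasi-likelihood test, Benjamini-Hochberg adjusted over all genes). Of all 11078 genes, 127 passed, 108 higher and 19 lower, which is 1.15%. At an unadjusted p under 0.05 there were 3 members, DNMT3B and NSUN2 lower and UCK1 higher, and 1252 genes or 11.3% of all, and DESeq2 also called 0 members. The members' median change was −0.04 on the log2 scale, against 0.00 over all genes. For SLC29A1, RRM1, RRM2 and DNMT1 the 95% interval of the change lay within −0.19 and 0.18 log2, and for TRDMT1, a low gene, it ran from −0.36 to 0.20. Without the libraries that stand apart, SLC29A1 lay at −0.0022 log2, DNMT1 at 0.0028, RRM1 at −0.02, RRM2 at 0.0059, UCK2 at 0.01 and TRDMT1 at −0.12, and UCK1 at 0.29.

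**Figure D2:**
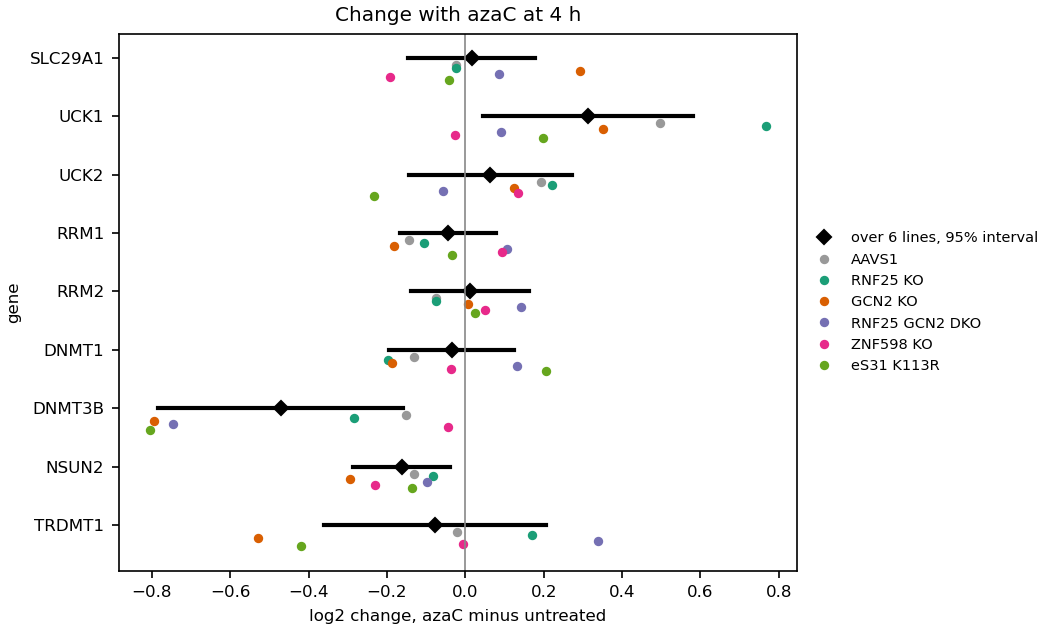
Change of the 9 tested members with azaC, as log2 of azaC over untreated. Diamonds are the change over the 6 lines with its 95% interval and dots are the single lines; the intervals of DNMT3B and NSUN2 lie below 0 and that of UCK1 above, and no member passed after adjustment over all genes.

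In single lines no member passed either, in edgeR or in DESeq2. The background was low as well: 0.117% of genes passed in AAVS1, 0.469% in RNF25 KO, 0.117% in ZNF598 KO and 0.515% in eS31 K113R. In GCN2 KO and in RNF25 GCN2 DKO 0 genes passed (0%), with 405 and 291 genes at an unadjusted p under 0.05 and 0 called by DESeq2 in either. At an unadjusted p under 0.05 there was 1 member in RNF25 KO (UCK1), 1 in GCN2 KO (DNMT3B) and 1 in eS31 K113R (DNMT3B), and 0 in the other lines. Of all genes, 9.31%, 3.66% and 5.22% were at that level in these 3 lines. Over 54 pairs of a tested member and a line, the 3 azaC libraries lay wholly above or below the 3 untreated ones in 8, while over all genes 9.27% of such pairs did. The 8 pairs were UCK1 in AAVS1, higher, and DNMT3B in GCN2 KO, the DKO and eS31 K113R, NSUN2 in GCN2 KO and eS31 K113R, UCK2 in eS31 K113R and RRM1 in GCN2 KO, all lower. A test of whether the azaC response differed among the 6 lines called 0 members in edgeR, with none at an unadjusted p under 0.05 and 0 in DESeq2, against 0.153% of genes called.

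**Figure D3:**
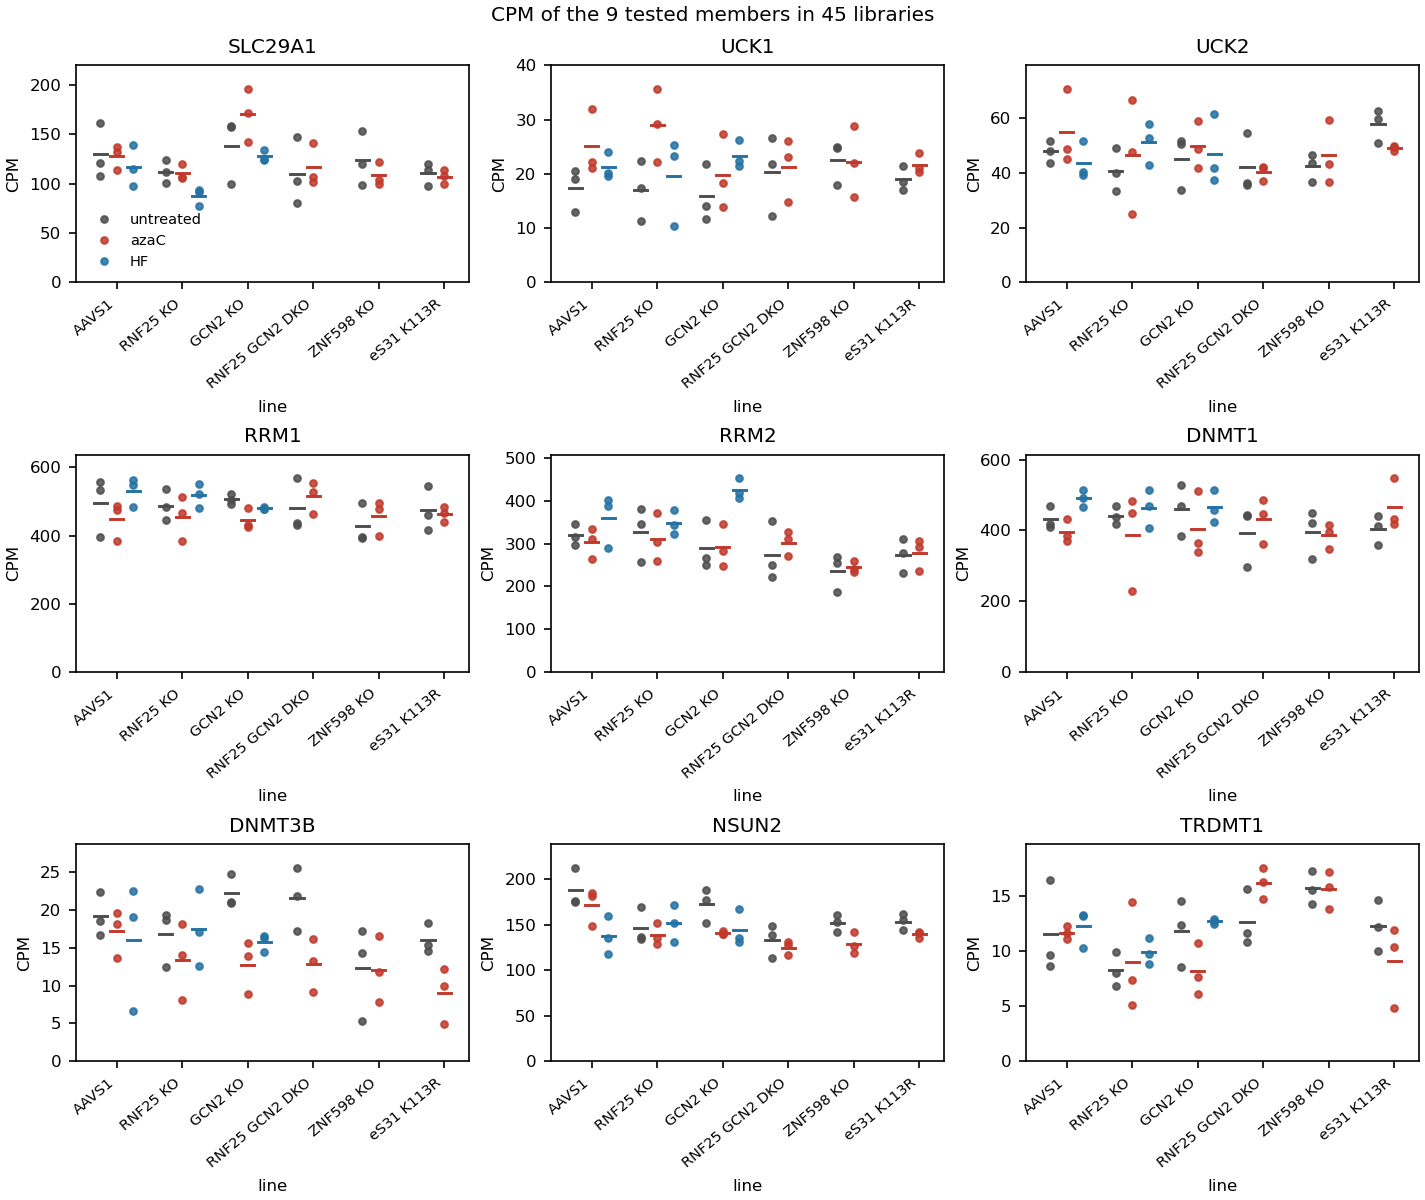
Level of each tested member in CPM, by line. Dots are single libraries and bars are group means of 3, in grey for untreated, red for azaC and blue for HF; DNMT3B in eS31 K113R had 14.5 to 18.3 CPM untreated and 4.87 to 12.1 CPM with azaC.

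SLC29A1 (ENSG00000112759, GRCh38 chromosome 6, 44219505 to 44234151, plus strand), the main carrier of the drug in most cells, had 80.5 to 161.8 CPM untreated with a median of 116.8. With azaC it had 99.7 to 196.4 CPM with a median of 113.6, and the ranges overlapped over most of their length. The change over 6 lines was 0.02 ± 0.08 log2 (adjusted p = 0.967), above 0 in 2 lines and below in 4. Its highest value with the drug was in GCN2 KO, where azaC libraries had 171.9, 196.4 and 142.4 CPM and untreated ones 157.7, 99.2 and 158.8. These overlapped, and the difference of 0.29 ± 0.20 log2 in that line did not pass (adjusted p = 1).

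SLC29A2 (ENSG00000174669, chromosome 11, 66362521 to 66372214, minus strand), the second carrier, was close to the limit of detection. It had 0 to 5 counts in a library and 56 in all 45, with 26 in the 18 untreated, 21 in the 18 azaC and 9 in the 9 HF libraries. It was at 0 in 16 libraries, the 3 azaC-treated eS31 K113R libraries among them. A count of 0 allows up to 3 counts, or 1.204 to 2.73 CPM by library depth, and counting error alone is covered by that limit. No fold is given for this gene, and 10.26% of its exon length is shared with AP001107.9 on the opposite strand, whose reads cannot be told apart here because the strand setting of the counting is not given in the sources used here.

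UCK1 and UCK2, the kinases that commit the drug to the cell, were at similar levels per length. UCK1 (ENSG00000130717, chromosome 9, 131523801 to 131531268, minus strand) had 11.3 to 26.7 CPM untreated with a median of 18.7, and 13.9 to 35.7 CPM with azaC with a median of 22.2. The change was 0.31 ± 0.13 log2, or 1.24-fold, with a 95% interval of 0.05 to 0.58 (adjusted p = 0.33), and it was above 0 in 5 of 6 lines. The highest single-line value was in RNF25 KO, with 22.2, 35.7 and 29.2 CPM with azaC and 11.3, 17.4 and 22.4 untreated, where 1 azaC library lay just under the highest untreated one. That difference was 0.77 ± 0.32 log2 (adjusted p = 0.422), and 0.58 without the libraries that stand apart in GC slope. In AAVS1 the azaC libraries, at 32.0, 22.2 and 21.2 CPM, lay above the untreated ones, at 12.9, 18.96 and 20.6, without overlap (0.50 ± 0.32 log2, and 0.56 without the libraries that stand apart).

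UCK2 (ENSG00000143179, chromosome 1, 165827531 to 165911618, plus strand) is the kinase with the higher activity on such analogues. It had 33.6 to 62.7 CPM untreated with a median of 47.4, and 25.2 to 70.96 CPM with azaC with a median of 47.9. The change over 6 lines was 0.06 ± 0.10 log2 (adjusted p = 0.877), above 0 in 4 lines. Both the lowest and nearly the highest azaC value came from RNF25 KO, at 25.2, 66.6 and 47.6 CPM, and the value of 66.6 belongs to the library apart in GC slope. The difference in that line was 0.22 log2 with both libraries that stand apart and −0.14 without them. In eS31 K113R the azaC libraries, at 49.5, 49.7 and 48.2 CPM, lay just below the untreated ones at 62.7, 51.2 and 59.8. Of the exon length of UCK2, 6.76% is shared with TMCO1 and AL358115.1 on the opposite strand. On the per-length scale UCK2 was 0.985 times UCK1 in the median untreated library and 0.760 with azaC, each over 18 libraries of 6 lines. This ratio ran from 0.566 to 1.69 untreated and from 0.431 to 1.62 with azaC, so the ranges overlapped widely. With HF, over 9 libraries of the lines that received it, the median was 0.761. Whether the ratio differed between treatments was not tested.

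RRM1 and RRM2, the reductase subunits, are cell-cycle genes whose small subunit is made in S phase. The 250 bases before their RefSeq start sites (GRCh38.p14), with DNMT1 beside them as the third high member, are shown because a word that RRM2 holds repeatedly is found once in RRM1 and not in DNMT1. CCAAT, the letters bound by the factor NF-Y, is in capitals, and each sequence is written 5′ to 3′ on the strand of the gene, from chr11:4094435-4094684 (plus), chr2:10122489-10122738 (plus) and chr19:10194954-10195203 (minus).
RRM1: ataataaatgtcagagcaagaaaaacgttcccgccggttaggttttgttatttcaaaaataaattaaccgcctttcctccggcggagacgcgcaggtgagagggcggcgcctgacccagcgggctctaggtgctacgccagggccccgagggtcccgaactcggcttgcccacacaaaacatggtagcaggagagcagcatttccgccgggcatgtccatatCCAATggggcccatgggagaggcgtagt
RRM2: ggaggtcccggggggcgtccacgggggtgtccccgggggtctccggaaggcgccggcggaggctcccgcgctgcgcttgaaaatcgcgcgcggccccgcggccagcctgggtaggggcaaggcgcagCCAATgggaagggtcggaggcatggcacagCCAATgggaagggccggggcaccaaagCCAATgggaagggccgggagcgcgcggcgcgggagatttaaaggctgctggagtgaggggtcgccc
DNMT1: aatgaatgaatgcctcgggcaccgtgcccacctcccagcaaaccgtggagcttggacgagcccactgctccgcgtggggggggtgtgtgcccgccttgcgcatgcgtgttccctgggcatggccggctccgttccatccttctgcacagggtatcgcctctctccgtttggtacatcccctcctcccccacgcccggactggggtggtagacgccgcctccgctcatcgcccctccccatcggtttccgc
RRM2 has CCAAT at 3 places, first bases 123, 93 and 66 before the start, RRM1 has it once, 28 before, and DNMT1 has none. RefSeq lists another start for RRM2 (window chr2:10122318-10122567), whose window holds CCAAT once, 249 before. CCAAT on either strand was found in 32.0% of 35116 RefSeq windows of this length, and at 3 or more places in 2.93%. RefSeq windows were at hand for 8 of the 10 members, 10 windows in all, and 6 windows of 5 members (UCK2, RRM1, RRM2, DNMT3B and TRDMT1) had the word. The E2F-type words TTTCCCGC, TTTCGCGC, TTTGCCGC and TTTGGCGC, searched on both strands, were in 0 of the 10 windows and in 2.79% of all. These matches describe letters only.

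RRM1 (ENSG00000167325, chromosome 11, 4094707 to 4138876, plus strand) had the smallest SE of the tested members with azaC. It had 392.1 to 569 CPM untreated with a median of 488 and 384 to 554 CPM with azaC with a median of 470.4. The change over 6 lines was −0.04 ± 0.06 log2 (95% interval −0.17 to 0.08, adjusted p = 0.858). The lines ran from −0.18 in GCN2 KO, where untreated libraries had 504, 492 and 521 CPM and azaC ones 432, 426 and 480, to 0.11 in the DKO. RRM1 shares 1.51% of its exon length with RRM1-AS1 on the opposite strand.

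RRM2 (ENSG00000171848, chromosome 2, 10120698 to 10131419, plus strand) had 186.9 to 382 CPM untreated with a median of 272.7 and 233.9 to 370.95 CPM with azaC with a median of 288.4. The change was 0.01 ± 0.07 log2 (95% interval −0.14 to 0.16, adjusted p = 0.972), above 0 in 4 lines. In the 3 lines that also received HF, untreated libraries had 317, 296 and 346 CPM in AAVS1, 345, 257 and 382 in RNF25 KO, and 250, 266 and 356 in GCN2 KO. The azaC libraries there had 311, 265 and 334, then 259, 304 and 371, then 247, 284 and 345 CPM, and so lay in the same range. RRM2 shares 20.23% of its exon length with AC007240.1 on the same strand, a gene that is not listed by that name in the table.

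DNMT1 and DNMT3B, the DNA methyltransferases that azaC traps, stood far apart in level. DNMT1 (ENSG00000130816, chromosome 19, 10133345 to 10231286, minus strand) had 295.5 to 529 CPM untreated with a median of 429 and 228 to 548 CPM with azaC with a median of 416.5. The change over 6 lines was −0.04 ± 0.08 log2 (95% interval −0.19 to 0.12, adjusted p = 0.913), below 0 in 4 lines and above in 2. Its lowest value of all 45 libraries, 228 CPM, was in the azaC-treated RNF25 KO library that stands apart in GC slope, where the other azaC libraries had 482 and 448. The difference in RNF25 KO was −0.20 log2 with both libraries that stand apart and 0.08 without them, so its direction turned. The highest difference was in eS31 K113R, with 433, 418 and 548 CPM with azaC and 411, 359 and 441 untreated, which overlapped (0.21 ± 0.19 log2, adjusted p = 1).

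DNMT3B (ENSG00000088305, chromosome 20, 32762385 to 32809356, plus strand) had the largest log2 difference of the 9 tested members over the 6 lines together. This did not hold in each line: UCK1 differed more in AAVS1 and RNF25 KO, and UCK2 in AAVS1. In ZNF598 KO, NSUN2, SLC29A1, UCK2, RRM1 and RRM2 differed more. For DNMT3B, untreated libraries had 5.32 to 25.6 CPM with a median of 18.4, and azaC libraries 4.87 to 19.6 CPM with a median of 13.5. The change over 6 lines was −0.47 ± 0.16 log2, or 0.721 times the untreated level, with a 95% interval of −0.78 to −0.16 (adjusted p = 0.153), and it was below 0 in 6 of 6 lines. The gene did not pass in this edgeR fit or in DESeq2. With a replicate block, which is a term for the replicate number, the adjusted p in edgeR was 0.0661. With the block and offsets corrected for GC content it was 0.0477, at −0.49 log2. The labels do not say that a number marks a shared batch.

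In GCN2 KO, DNMT3B had 24.7, 20.9 and 21.0 CPM untreated and 13.9, 15.6 and 8.86 with azaC, with no overlap. In RNF25 GCN2 DKO it had 21.9, 25.6 and 17.1 CPM untreated and 13.3, 16.2 and 9.09 with azaC, and in eS31 K113R 14.5, 18.3 and 15.3 untreated and 4.87, 12.1 and 9.91 with azaC, again with none. In these lines the differences were −0.79 ± 0.38, −0.75 ± 0.37 and −0.81 ± 0.40 log2. AAVS1, RNF25 KO and ZNF598 KO overlapped: ZNF598 KO had 5.32, 17.2 and 14.3 CPM untreated and 16.6, 11.7 and 7.89 with azaC, a difference of −0.05 log2. That difference kept its sign in 10 of 13 alternative fits and reached 0.26 log2 with 1 library left out. The azaC response of DNMT3B did not pass as differing among the lines (adjusted p = 1). Without the libraries that stand apart the change over 6 lines was −0.53 log2 (adjusted p = 0.121). In RNF25 KO the difference was −0.28 log2 with both and −0.58 without them. On the length of all exons DNMT1 had 10.7 times the level of DNMT3B in the median untreated library and 15.04 times with azaC, each over 18 libraries of 6 lines. This ratio ran from 5.46 to 37.3 untreated and from 5.98 to 41.99 with azaC, so the ranges overlapped widely. With HF, over 9 libraries of 3 lines, the median was 13.3. A difference in the ratio was not tested.

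NSUN2 (ENSG00000037474, chromosome 5, 6599239 to 6633291, minus strand), which methylates many tRNAs, was the other member below 0 in 6 of 6 lines. It had 113.005 to 213 CPM untreated with a median of 154 and 116 to 185 CPM with azaC with a median of 139.7. The change over 6 lines was −0.16 ± 0.06 log2 (95% interval −0.29 to −0.04, adjusted p = 0.246), with single lines from −0.29 to −0.08. The sign did not hold in every line: in RNF25 KO, at −0.08, 11 of 14 alternative fits kept it. The highest value there was 0.04 log2, with 1 library left out. In AAVS1 the difference of −0.13 log2 kept its sign but shrank to −0.02 in an alternative fit. In GCN2 KO it had 187, 152 and 177 CPM untreated and 143, 139.6 and 139.8 with azaC, without overlap. Without the libraries that stand apart the change was −0.14 log2 (adjusted p = 0.387).

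TRDMT1 (ENSG00000107614, chromosome 10, 17142254 to 17202054, minus strand), which methylates a few tRNAs, was the lowest member that could be tested. It had 6.86 to 17.3 CPM untreated with a median of 11.9 and 4.87 to 17.6 CPM with azaC with a median of 11.8. The change was −0.08 ± 0.14 log2 (adjusted p = 0.893), below 0 in 4 lines, and single lines ran from −0.53 ± 0.36 in GCN2 KO to 0.34 ± 0.33 in the DKO. The direction was not settled in each of the 4 lines. In AAVS1, at −0.02 log2, 8 of 14 alternative fits kept the sign, and the highest gave 0.35. In ZNF598 KO, at −0.006 log2, 10 of 13 kept it. In RNF25 KO the difference was 0.17 log2 with the libraries that stand apart and −0.41 without them. NSUN2 had 24.5 times the per-length level of TRDMT1 in the median untreated library and 25.3 times with azaC.

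Among untreated lines no member differed past the threshold. A test over the 6 lines called 0 members and 6.16% of genes in edgeR, and DESeq2 called 0 members too. NSUN2 was the 1 member at an unadjusted p under 0.05 (adjusted p = 0.264), where 13.5% of all genes were. Against AAVS1, 1.62% of genes passed in RNF25 KO, 1.05% in GCN2 KO, 1.42% in the DKO, 0.93% in ZNF598 KO and 2.87% in eS31 K113R, and 0 members in each by either tool. At an unadjusted p under 0.05 these comparisons held 1, 0, 1, 2 and 0 members, and 9.71%, 9.58%, 9.18%, 8.92% and 11.8% of all genes. With lines ordered by mean, neighbours overlapped in range for every member, but lines further apart did not always. TRDMT1 had 14.3 to 17.3 CPM in ZNF598 KO and 6.86 to 9.95 in RNF25 KO. How often lines are apart in this way over all genes was not counted. The highest line mean was 1.17 times the lowest for DNMT1, 1.18 for RRM1, 1.81 for DNMT3B and 1.9 for TRDMT1.

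NSUN2 had its highest untreated mean in AAVS1, at 187.5 ± 21.7 CPM (SD, n = 3), and its lowest in RNF25 GCN2 DKO, at 133 ± 18.2. The DKO libraries had 138.7, 148.2 and 113.005 CPM and the AAVS1 libraries 174.7, 212.6 and 175.3, with no overlap. The share of all genes without overlap between these lines was not counted. The difference was −0.49 ± 0.15 log2 (adjusted p = 0.098), and −0.39 (adjusted p = 0.409) without the libraries that stand apart, of which one is the AAVS1 library at 212.6. With a replicate block its adjusted p in edgeR was 0.0482. RNF25 KO lay at −0.36 log2 (adjusted p = 0.371), ZNF598 KO at −0.31 (0.533), eS31 K113R at −0.29 (0.444) and GCN2 KO at −0.12 (0.899). Without the libraries that stand apart these were −0.25, −0.21, −0.19 and −0.02 log2, all smaller in size than with them. RRM2 was lowest in ZNF598 KO, at 236 ± 43.4 CPM against 319 ± 24.9 in AAVS1 (−0.43 ± 0.18 log2, adjusted p = 0.416). DNMT3B was lowest in ZNF598 KO too, at 12.3 ± 6.21 CPM, where 1 library of 5.32 CPM lay below the other 2.

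HF, an activator of GCN2 that is no nucleoside, gives a second drug for the same genes in 3 lines. Against untreated cells, 833 genes passed (494 higher and 339 lower, 7.52%) and 0 members, with 2 members and 19.7% of all genes at an unadjusted p under 0.05, and 0 members called by DESeq2. RRM2 had a mean of 378 CPM with HF and 313 untreated (0.27 ± 0.10 log2, adjusted p = 0.114). With a replicate block its adjusted p in edgeR was 0.0106. NSUN2 had 145 CPM with HF and 169 untreated (−0.22 ± 0.09 log2, adjusted p = 0.133). UCK1 lay at 0.34 ± 0.19 log2 (adjusted p = 0.324) and SLC29A1 at −0.21 ± 0.11 (adjusted p = 0.321). DNMT1 and DNMT3B were at 0.09 ± 0.11 and −0.24 ± 0.21 log2.

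Between the drugs, RRM2 was lower with azaC than with HF. In edgeR's fit of group means, without a replicate block, it was the 1 member past the threshold in any comparison made. In AAVS1 RRM2 had 387, 289 and 403 CPM with HF, in RNF25 KO 378, 323 and 344, and in GCN2 KO 406, 419 and 454. The azaC libraries given above overlapped these in AAVS1 and RNF25 KO, and in GCN2 KO the highest azaC library, at 345 CPM, lay under the lowest HF library. The share of all genes without overlap between the drugs in a line was not counted. Over the 3 lines the means were 302 CPM with azaC and 378 with HF, a difference of −0.32 ± 0.10 log2 (95% interval −0.53 to −0.11, adjusted p = 0.0486), where 8.15% of genes passed. The call sits at the edge and depends on the fit: the adjusted p was 0.0356 in DESeq2, 0.0511 with RLE size factors and 0.0793 without the libraries that stand apart. With a replicate block it was 0.00282 in edgeR, though the labels do not say that a number marks a shared batch. The difference itself lay between −0.37 and −0.26 log2 in all 26 alternative fits. Of 18 fits that left out 1 library, 15 lost it (adjusted p 0.0558 to 0.119), and those without AAVS1 HF replicate 2, RNF25 KO azaC replicate 3 or GCN2 KO azaC replicate 3 kept it.

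The other members between the drugs did not pass without a replicate block, while DNMT1 did with it (edgeR adjusted p = 0.0348). SLC29A1 lay at 0.29 ± 0.11 log2 (adjusted p = 0.1105), higher with azaC, and DNMT1 at −0.26 ± 0.11 (adjusted p = 0.150) and RRM1 at −0.18 ± 0.09 (adjusted p = 0.201), lower with azaC. Without the libraries that stand apart DNMT1 lay at −0.17 log2 (adjusted p = 0.372) and RRM1 at −0.14. With RRM2 these are the 4 members at an unadjusted p under 0.05, where 21.9% of all genes were. The comparison of HF with untreated cells and that of azaC with HF share the HF libraries. Of 24 S-phase markers, CCNE2 (0.70 log2), CDC6 (0.43) and CDT1 (0.84) rose with HF, 3 genes where 7.52% of all genes passed, and the median was 0.23 against 0.01 over all genes. Between azaC and HF 1 passed, where 8.15% of all genes did: CDC6, a replication licensing factor, was lower with azaC (−0.49, adjusted p = 0.0121), and the median was −0.19. Their part in the value of RRM2 was not tested. CCNE2, CDC6 and CDT1 are named after their values were seen.

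**Figure D4:**
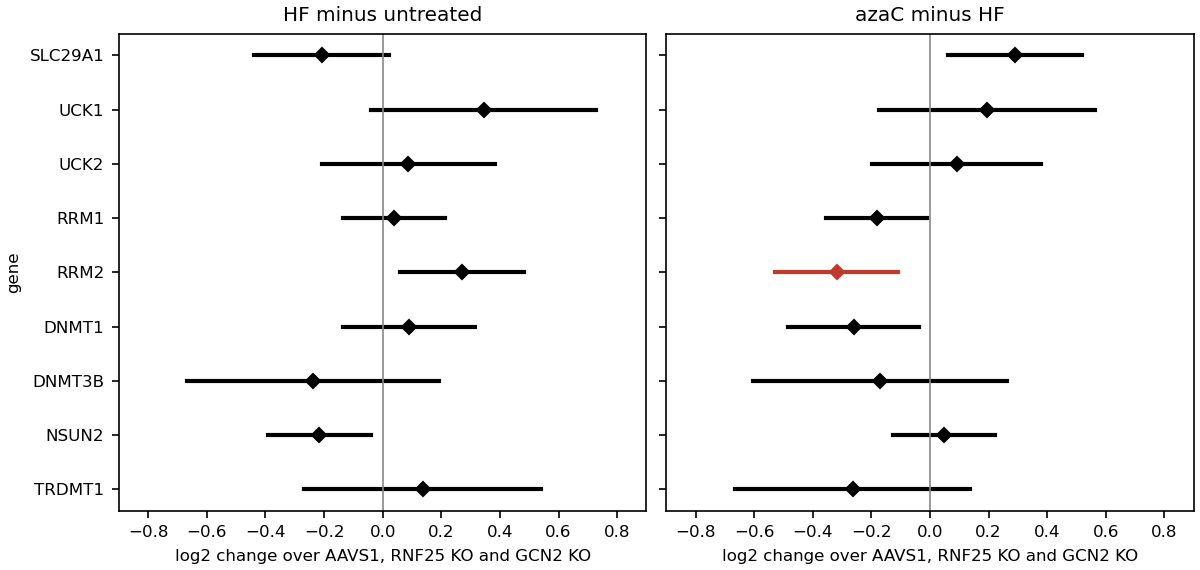
Change of the 9 tested members as log2 with 95% intervals over AAVS1, RNF25 KO and GCN2 KO. The left panel is HF against untreated and the right panel azaC against HF; RRM2, in red, lay at −0.32 in the right panel and is the member that passed.

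Across libraries the reductase subunits and DNMT1 varied together more than the other members. Over all 45 libraries the Pearson correlation of log2 CPM was 0.61 for RRM1 with DNMT1, 0.50 for RRM2 with DNMT1 and 0.40 for RRM1 with RRM2. Over the 15 group means it was 0.74, 0.62 and 0.57. The lowest pair was UCK1 with NSUN2, at −0.30 over 45 libraries. The libraries share culture, depth and base composition as well: with the GC slope of a library RRM1 had r = −0.30, DNMT1 −0.28, UCK2 0.28 and SLC29A1 0.25, and DNMT1 had −0.44 with the log of the total count. These values are a description, and the share of depth or base composition in them was not tested.

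The genes most like each member over the 45 libraries, by the same correlation, were led by those of DNMT1, with PPIG and DEK both at r = 0.81. RRM1 was most like NOP58 (0.70) and FAM192A (0.68), and RRM2 most like CFAP20 (0.70) and GINS2 (0.70). UCK2 was most like MRPS18B (0.67) and SAE1 (0.59), SLC29A1 most like FDFT1 (0.64) and SF1 (0.63), and NSUN2 most like TFCP2 (0.62) and FAM198B (0.61). For the low genes the closest were EGFEM1P and GPRASP1 (0.62 each) for TRDMT1, TIGD3 (0.55) and SLC35G1 (0.50) for UCK1, and NRXN3 (0.55) and FAM199X (0.51) for DNMT3B. Of these 18 genes, 3 were again among the closest 2 over the 15 group means, FDFT1 for SLC29A1, DEK for DNMT1 and TFCP2 for NSUN2.

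The rest of the drug's route, in 8 gene lists, had 0 genes past the threshold with azaC over 6 lines or in any single line in edgeR. Of all genes, 1.15% passed over 6 lines and 0% to 0.515% in single lines. At an unadjusted p under 0.05 over 6 lines were 11.3% of all genes. DESeq2 called 1 with azaC over 6 lines, NT5C (adjusted p = 0.0372), where it called 1.69% of all genes, and 0 in single lines. Of nucleoside transporters, 5 of 10 could be tested, with a median change of 0.08 log2 and 1 gene at an unadjusted p under 0.05. The concentrative carriers SLC28A1 and SLC28A2 had 0 counts in every library, and the closest to the threshold were the efflux pumps ABCC4 (0.33 ± 0.16 log2, adjusted p = 0.396) and ABCC10 (0.30 ± 0.21). Of pyrimidine salvage, breakdown and synthesis genes, 23 of 32 were tested, with a median of 0.10 and 4 at an unadjusted p under 0.05. NT5C, a nucleotidase that removes phosphate from pyrimidine nucleotides, lay at 0.56 ± 0.16 log2 (adjusted p = 0.0668) and NME3, a nucleoside diphosphate kinase, at 0.60 ± 0.20 (adjusted p = 0.157). CDA, the deaminase that inactivates the drug, had 0 to 6 counts and was at 0 in 17 libraries, and DCK, the kinase of the deoxy analogue, had 0 to 18.

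Genes of the dNTP pool, all 10 tested, had a median of 0.04 with none at an unadjusted p under 0.05, and NUDT1, which cleans the pool of oxidised nucleotides, lay at 0.24 and ADK, adenosine kinase, at −0.16. Of DNA methylation genes beyond the members, 16 of 17 were tested, with a median of −0.02 and 2 at an unadjusted p under 0.05. Of RNA cytosine methyltransferases and factors, 7 of 10 were tested, with a median of 0.04 and 1 at an unadjusted p under 0.05; ALKBH1, an oxygenase that acts on modified RNA, lay at 0.48 (adjusted p = 0.230), and NOP2 had 0 to 6 counts. Of repair genes for DNA-protein crosslinks, the lesion that a trapped methyltransferase makes, 15 of 16 were tested, with a median of 0.02 and 0 at an unadjusted p under 0.05. S-phase genes (24 of 24, median 0.03) and G2/M genes (19 of 20, median −0.07) had 3 and 1 at an unadjusted p under 0.05. Over all genes 11.3% were at that level.

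Untreated lines did differ in a few of these listed genes. In eS31 K113R against AAVS1, UPRT, a homologue of a uracil salvage enzyme, was lower, at −1.35 ± 0.31 log2 (adjusted p = 0.00556), and ZBTB33, a reader of methylated DNA, at −1.11 ± 0.22 (adjusted p = 0.00111). Both lie on chromosome X, where 147 of 415 tested genes were lower and 3 higher in that comparison, with a median of −0.87 against 0.03 on the other chromosomes. NME4, a mitochondrial nucleoside diphosphate kinase, was higher there by 0.84 ± 0.25 log2 (adjusted p = 0.0488). In RNF25 GCN2 DKO, RNF4, a ligase that marks trapped DNMT1 for removal, was lower, at −1.59 ± 0.33 log2 (adjusted p = 0.00231). SLBP, the histone mRNA binding protein, was lower in the DKO, at −1.25 ± 0.21 (adjusted p = 0.00011) and in RNF25 KO, at −0.98 ± 0.21 (adjusted p = 0.00336). Both RNF4 and SLBP lie on chromosome 4.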

How the data were processed

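The authors deposited raw counts per gene. Per the submitters' processing notes, STAR 2.7.10b, HTSeq 0.9.1 and GRCh38 were used, while which annotation, strand setting or molecular identifiers entered the counting is not given in the sources used here. Per the labels' protocols, a CORALL mRNA-Seq V2 kit turned polyA RNA into libraries. All 45 columns were used, and 0 columns of per-sample values were left out. No library was a copy of another: the lowest chi-square per degree of freedom was 3.18 over 45 pairs within groups. Entries with no symbol (2862, with 0.0286% of the counts) have a gene identifier and were kept.

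The counts were fitted in R 4.3.3 with edgeR 4.0.16: filterByExpr (minimum count 10), TMM scaling, a mean for each of 15 groups and quasi-likelihood tests, 30 residual degrees of freedom, with a common biological coefficient of variation of 22.1%. Tests were two-sided, Benjamini-Hochberg adjusted over 11078 genes within a comparison. Results over several lines average the lines equally. The SE is the fold change over the root of F. CPM use TMM-scaled totals, and correlations used log2 CPM with a prior count of 2. Lengths and positions came from GENCODE 29 (58444 of 60676 identifiers matched, and 11070 of the 11078 tested genes had a length), promoter sequences from RefSeq (GRCh38.p14), read with Python 3.11.15. The fit was tested on simulated data. Alternatives were DESeq2 1.42.0, RLE scaling, no filter, GC-corrected offsets, a replicate block, fits of the comparison alone, fits without single libraries, without the libraries titled eS32_K223R and without the 2 libraries that stand apart.

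The members, lists and alternatives were chosen with earlier results of these data known. Named are all members, at most 4 genes of a list with the smallest adjusted p that pass with azaC or among untreated lines, otherwise the 2 with the smallest p with azaC over 6 lines, and the 2 genes most like each member. CPM and fold changes of low genes rest on few counts, and limits for a count of 0 use 3 counts.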

Additional observations from a re-analysis of the deposited data

How the results depend on the processing

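Of 2241 refitted values of the 9 tested members over all comparisons, 2215 kept their side of the threshold, 20 lost a call, 6 gained one, and no value past the threshold turned its sign. Small values that had not passed did turn: over 6 lines, SLC29A1 and RRM2 kept the sign of their azaC difference in 34 of 45 fits each and DNMT1 in 43, while the other 6 members kept it in all 45. The count of members between azaC and HF, 1 as reported, was 0 with RLE size factors, with no filter on low counts (RRM2 adjusted p = 0.118), with GC-corrected offsets (0.150), in the fit of the comparison alone (0.0726) and without the 2 libraries that stand apart, and 0 to 1 when 1 library was left out. It was 2 with a replicate block (RRM2 adjusted p = 0.00282, DNMT1 0.0348) and 2 with the block and GC-corrected offsets (RRM2 0.0198, DNMT1 0.0125). The replicate block also gave 1 member in untreated RNF25 GCN2 DKO against AAVS1 (NSUN2, 0.0482) and 1 with HF over 3 lines (RRM2, 0.0106), and with GC-corrected offsets 1 with HF (RRM2, 0.00785) and 1 with azaC over 6 lines (DNMT3B, −0.49 log2, 0.0477). All genes called with azaC over 6 lines numbered 127 as reported, 273 with the replicate block, 323 with the block and GC-corrected offsets, and 108 to 143 with 1 library left out. Leaving out 1 library moved some single-line counts by over 1.5 times. In RNF25 KO azaC gave 29 genes without azaC replicate 2, 34 without untreated replicate 1, 79 without azaC replicate 3 and 90 without azaC replicate 1. In eS31 K113R it gave 34 without untreated replicate 1 or azaC replicate 2, and in AAVS1 22 without untreated replicate 3. Untreated against AAVS1, GCN2 KO gave 74 without its replicate 3 or AAVS1 replicate 2, and the DKO 99 without its replicate 2. ZNF598 KO gave 67 without its replicate 1 or 3, 65 without AAVS1 replicate 1 and 63 without AAVS1 replicate 2, and eS31 K113R gave 209 without its replicate 1. The block gave 1315 in place of 833 with HF, and 1452 in place of 903 between the drugs. It gave 97 in place of 52 with azaC in RNF25 KO, 88 in place of 57 in eS31 K113R and 27 in place of 17 for differing responses. Against AAVS1 it gave 273, 206, 245 and 199 in place of 179, 116, 157 and 103 in untreated RNF25 KO, GCN2 KO, the DKO and ZNF598 KO, where fits of the comparison alone gave 53, 15, 48 and 24, and 65 in place of 318 in eS31 K113R. With the block and GC-corrected offsets these were 305, 233, 274, 194 and 506, with 1061 in place of 682 over the untreated lines, 1416 with HF, and 90, 21, 95 and 30 in place of 52, 13, 57 and 17 with azaC in RNF25 KO, ZNF598 KO and eS31 K113R and for differing responses. With no filter azaC gave 30 in AAVS1, 110 in RNF25 KO, 1 in the DKO and 42 for differing responses, and fits of the comparison alone gave 4 in AAVS1 and 26 in RNF25 KO. Without the libraries titled eS32_K223R, 26 genes passed with azaC in eS31 K113R and 97 untreated against AAVS1. The cause of these shifts was not tested. The labels do not say that a number marks a shared batch, and 14 of 18 azaC and untreated pairs of 1 number correlated over 0.1 (lowest −0.044, highest 0.37), so the number was not taken as a pairing; as a hint from the data, 42 of 45 libraries were closest on average to their own number. Depth limits SLC29A2, at 0 to 5 counts a library, and TRDMT1 and DNMT3B, at about 5 to 26 CPM.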

Other observations

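Some listed genes past the threshold with HF or between the drugs over 3 lines are given here, chosen after their values were seen. With HF, NT5C3A, a pyrimidine nucleotidase, rose (0.42 log2), as did the recombination gene BRCA2 (0.70), while RNF4 (−0.77), the unfolding ATPase VCP (−0.30) and the mitotic kinesin KIF20A (−0.38) fell, by edgeR. RNF4, which targets SUMO-marked proteins such as trapped DNMT1, was higher with azaC than with HF (0.65 log2, adjusted p = 0.0239), while its azaC difference over 6 lines was −0.07 log2. Higher with azaC than with HF were also IMPDH1, of guanine nucleotide synthesis (0.68), and MBD3, of the methyl-binding family (0.76). Lower were the methylcytosine oxidase TET2 (−0.61), BRCA2 (−0.72) and the mitotic gene HMMR (−0.50). These comparisons share their HF libraries.

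On chromosome X, untreated GCN2 KO had 17 of 415 tested genes lower and 2 higher than AAVS1, with a median of −0.32 log2 against 0.01 on the other chromosomes. In the other lines but eS31 K113R that median lay between −0.01 and 0.06 log2. No member lies on chromosome X.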
